A study of Mus musculus with 24 samples.

Results

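Hippocampal ageing was examined in male (XY) control mice, by comparing 3 old libraries (24 months) with 3 young libraries (6 months), each from the hippocampus of a separate mouse. These 6 of the 24 libraries of the series were chosen by their labels for sex, genotype and age. The controls were littermates of brain aromatase knockout (*bArKO*) mice on a C57BL/6J background. They carried the loxP-flanked aromatase gene (Arom fl/fl) in both age groups but no *Nestin-Cre*, the transgene that deletes aromatase in neural cells of *bArKO* mice. All mice were euthanised with ketamine and xylazine, and no drug treatment is described. The old age is that of the sample labels, and the design text of the series gives a lower age. The female controls and the *bArKO* mice of both sexes, 3 young and 3 old each, served for comparison.

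The hippocampus forms memories through a circuit of dentate granule cells and CA3 and CA1 pyramidal neurons. With age its microglia and astrocytes are known to express more complement and other immune genes, while the birth of new granule neurons declines. Immediate early genes, glucocorticoid-induced genes and heat shock genes respond within hours to activity, stress hormones and temperature, so their RNA also follows the state of the animal at the time of death.

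The authors deposited raw counts of reads per gene. Old replicates 1, 2 and 3 had 12912021, 12657471 and 10129173 counts in total, and young replicates 1, 2 and 3 had 12054486, 11053253 and 11621054 (exact two-sided permutation test, p = 0.8). Counts were expressed as CPM (counts divided by the library total and multiplied by 1e6) after scaling with edgeR's TMM factors. *Camk2a*, a kinase of excitatory synapses, was at 8199, 7744 and 7744 CPM in the old and 7075, 7053 and 7509 CPM in the young libraries, higher in every old library, and *Neurod6*, a transcription factor of pyramidal neurons, at 211, 261 and 164 against 184, 209 and 166 CPM. The granule cell synaptic protein *C1ql3* was at 65.1, 51.7 and 56.9 against 87.5, 74.5 and 54.6 CPM, so markers of both main neuron types of the labelled tissue were present in every library. The Y-linked genes *Uty* (15.9, 16.5 and 17.5 CPM in old, 16.1, 17.9 and 17.3 CPM in young) and *Eif2s3y* (20.7, 26.6 and 22.3 against 17.01, 18.4 and 21.7 CPM) were present in all 6. *Xist*, the RNA of the inactive X chromosome, had 2, 8 and 11 counts in the old and 0, 0 and 1 in the young libraries. Aromatase itself (*Cyp19a1*) had at most 2 counts in any of the 6, so its level was not detectable at this depth.

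Several libraries stood apart by markers of neighbouring tissue. Young replicate 3 had the highest level of all 15 choroid plexus markers. Their summed level was 651, 407 and 1974 CPM in old replicates 1, 2 and 3 and 963, 284 and 10370 CPM in young replicates 1, 2 and 3, and none of the 15 was at 0 counts in all 6 libraries. The most abundant was *Ttr*, the thyroid hormone carrier of the choroid plexus, at 229, 104 and 1194 CPM in old and 439, 28.5 and 6948 CPM in young libraries. The median log2 fold change (old vs young) of the 15 markers was -2.05, and 0.51 without young replicate 3. Young replicate 1 had the highest level of all 15 thalamus markers, with sums of 496, 431 and 531 CPM in old and 1046, 512 and 498 CPM in young libraries. The most abundant of them was the RNA-editing enzyme *Adarb1* (248, 231 and 259 against 385, 257 and 244 CPM), and *Tcf7l2*, a transcription factor of thalamic neurons and of maturing oligodendrocytes, was at 5.29, 3.58 and 9.94 against 33.5, 10.1 and 5.49 CPM. Their median log2 fold change was -0.79, and -0.03 without young replicate 1.

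Among the old libraries, replicate 3 was highest in 14 of 17 markers of fibroblasts and meninges, which summed to 155, 164 and 384 CPM in old and 235, 186 and 232 CPM in young libraries. *Mgp*, a matrix protein of vessels and meninges, was at 9.48, 13.03 and 35.6 against 9.46, 11.2 and 13.9 CPM, and *Pdgfra*, the most abundant marker, is shared with oligodendrocyte precursors. The median log2 fold change of the 17 markers was 0.14. Without old replicate 3 it was -0.59 with 8 lower (47.1% against 11.1% of all genes tested). It was 0.55 without old replicate 1, 0.40 without old replicate 2 or young replicate 3, 0.34 without young replicate 1 and -0.01 without young replicate 2. Old replicate 1 was highest in 3 of the 4 pineal gland markers with enough counts to be tested. Its level of *Tph1*, which makes serotonin in the pineal gland, was 6.996 CPM against at most 0.664 CPM in the other 5 libraries. The melatonin enzymes *Aanat* and *Asmt* had at most 3 and 2 counts in any of the 6, and *Gngt1* had 0 in all 6. The 4 tested pineal markers had a median log2 fold change of 0.96, and -0.23 without old replicate 1. Old replicate 1 was also highest in 28 of 33 myelin genes. The part of these tissues in the results below was not tested.

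**Figure D1:**
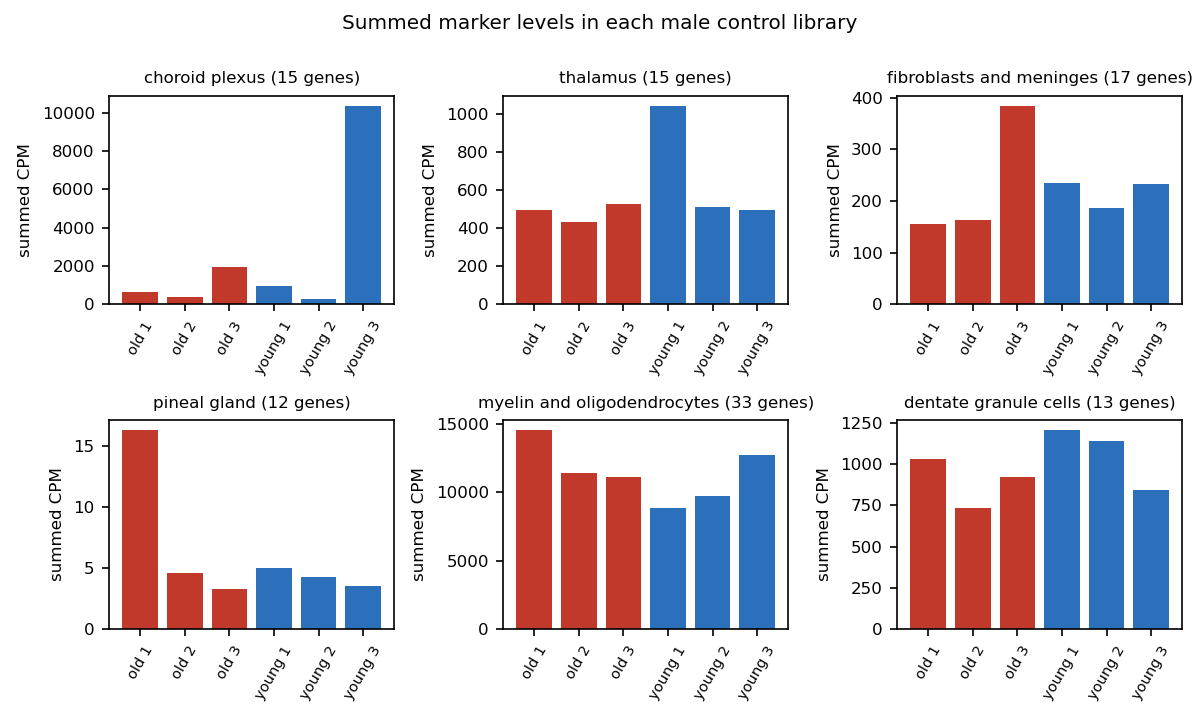
Summed CPM (vertical axes) of 6 marker lists in each of the 3 old (red) and 3 young (blue) male control libraries. Choroid plexus markers stand out in young replicate 3 (10370 CPM), thalamus markers in young replicate 1, fibroblast and meninges markers in old replicate 3 and pineal gland markers in old replicate 1.

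Differential expression was tested by the quasi-likelihood method of edgeR, fitted to all 24 libraries, and a DEG had a Benjamini-Hochberg adjusted p under 0.05 and an absolute log2 fold change above 0.5. Of 15693 genes tested, 3 (0.0191%) were DEGs with higher expression in old mice. With lower expression there were 0 (0%), with 476 lower genes at an unadjusted p under 0.05, 0 by DESeq2 on the same 24 libraries and 6 by DESeq2 on only the 6 libraries.

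The DEG with the smallest adjusted p was ENSMUSG00000095041, which has no entry in the GENCODE annotation used here and therefore no symbol or position. It was at 79.8, 63.01 and 84.6 CPM in old replicates 1, 2 and 3 and 30.9, 35.5 and 33.2 CPM in young replicates 1, 2 and 3. All 3 old libraries lay above all 3 young, and the mean rose from 33.2 ± 2.29 to 75.8 ± 11.3 CPM (mean ± SD of 3), which is 1.19 in log2 units with a standard error of 0.16 (edgeR adjusted p = 0.00302). Without young replicate 1 its edgeR adjusted p was 0.0726, and without any other of the 6 libraries it stayed a DEG.

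*C4b* (GRCm39 chr17:34947354-34962912) encodes complement C4, which is cleaved in the classical pathway and tags material for removal by phagocytes. It was at 149, 103 and 100.1 CPM in the old and 47.5, 32.2 and 53.8 CPM in the young libraries. The groups did not overlap, old replicate 1 was the highest and young replicate 2 the lowest, and the mean rose from 44.5 ± 11.1 to 117 ± 27.7 CPM (mean ± SD of 3), or 2.64-fold (log2 1.40 ± 0.21 standard error, edgeR adjusted p = 0.00820). It was no longer a DEG without old replicate 1 (edgeR adjusted p = 0.0981), young replicate 1 (0.0837) or young replicate 2 (0.140), and its log2 fold change with a library left out was between 1.19 and 1.57. The near-identical neighbour *C4a* shares 28.6% of the 50-base words of *C4b* transcripts, the length of the reads. *C4a* had at most 10 counts in any of the 6 libraries, and reads that match both could not be assigned to either.

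*Spag6* (GRCm39 chr2:18698843-18755224), a protein of the central apparatus of motile cilia, was at 4.43, 5.24 and 5.22 CPM in old and 1.99, 2.15 and 2.23 CPM in young libraries. Its level was low but even within each group, and the mean rose from 2.13 ± 0.122 to 4.96 ± 0.462 CPM (mean ± SD of 3, log2 1.22 ± 0.19 standard error, edgeR adjusted p = 0.0108). Without old replicate 1 it stayed a DEG, and without old replicates 2 or 3 or young replicates 1, 2 or 3 its edgeR adjusted p was 0.0683, 0.0840, 0.136, 0.124 and 0.0560. Its paralog *Spag6l*, which shares 18 of its 6934 words of 50 bases with other genes, was at 9.87, 6.91 and 7.88 CPM in old and 7.63, 7.18 and 12.1 CPM in young libraries, which overlap. *Spag6l* and *C4a* were chosen after the DEGs were seen. *Spag6* shares 10.9% of its 50-base words with *Gm3363*, which overlaps it on the opposite strand. From which strand their reads came was not tested.

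**Figure D2:**
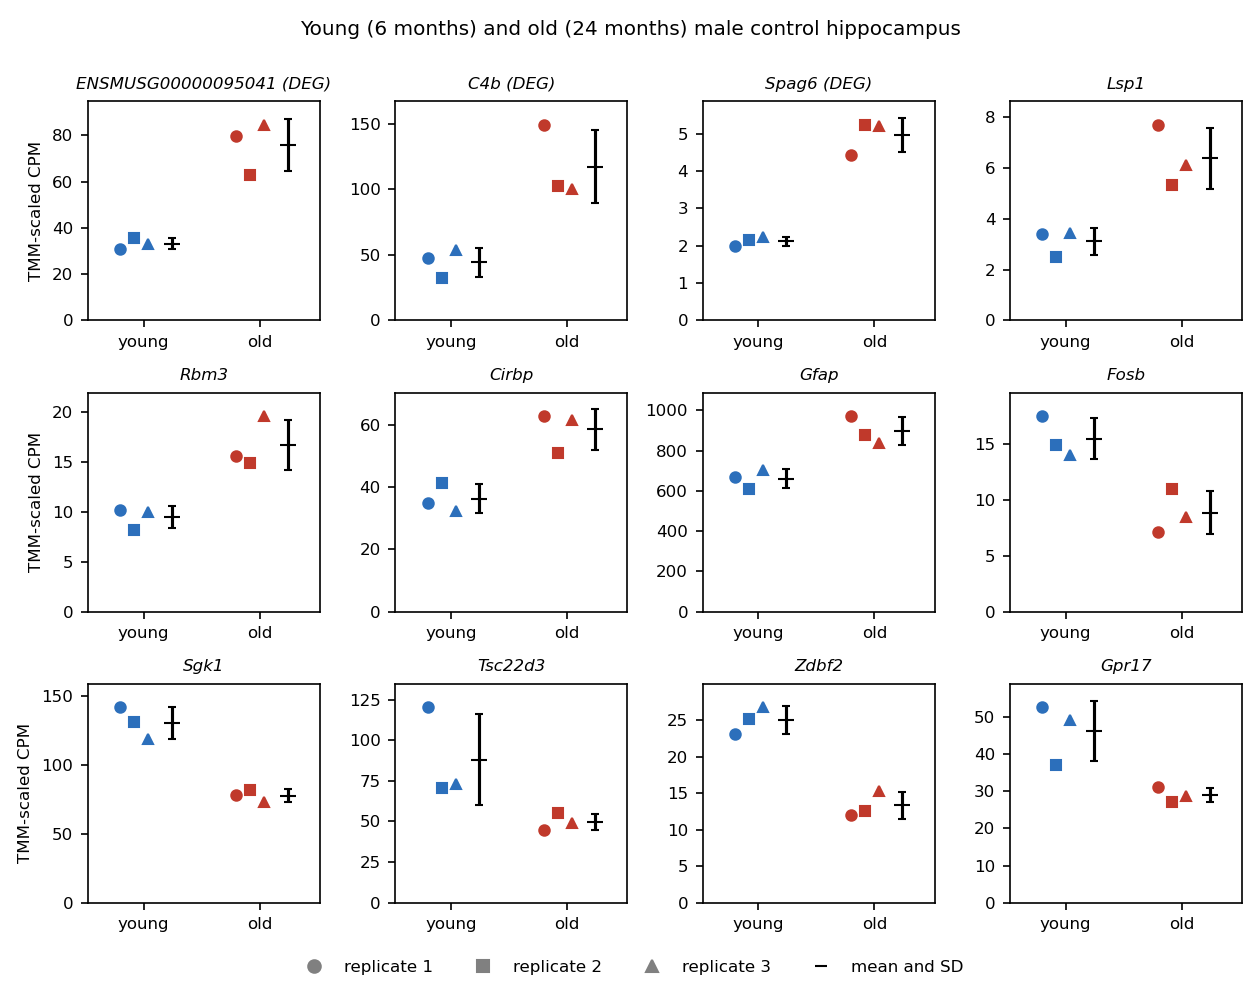
TMM-scaled CPM (vertical axes, from 0) of 12 genes in young (blue) and old (red) male control libraries, with the symbol giving the replicate number and the black bar the mean and SD of 3 libraries. The 3 DEGs are marked, and in all 12 panels every old library lies on one side of every young library.

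The number of DEGs depended on the tool and the libraries in the fit. Without young replicate 1 there were 0 DEGs and without young replicate 2 there was 1, while each other left-out library gave 2. DESeq2 on only the 6 libraries, which estimates the spread from these mice alone, gave 15 DEGs, 9 higher and 6 lower in old mice, of which 2 were edgeR DEGs (*C4b* and ENSMUSG00000095041). The other 7 higher genes were *Pcsk1n*, an inhibitor of prohormone convertase (DESeq2 adjusted p = 0.000307), *Cirbp* (0.000564) and *Rbm3* (0.0267), RNA-binding proteins induced by cold, *Ighm*, the immunoglobulin heavy chain of IgM (0.00757), *Lyz2*, the lysozyme of myeloid cells (0.0188), the noncoding *Gm54109* (0.0215) and *Vegfa*, the angiogenic growth factor (0.0487). The 6 lower genes were *Sgk1* (1.76e-09) and *Tsc22d3* (0.00356), both induced by glucocorticoids, *Zdbf2* (0.000108), an imprinted gene, *Slc29a4* (0.00662), a monoamine transporter, *Gpr17* (0.00670), a receptor of committed oligodendrocyte precursors, and *Spata13* (0.0245), a guanine exchange factor. In edgeR's fit of all 24 libraries the smallest adjusted p among these 13 genes was 0.393 (*Gm54109*). EdgeR on only the 6 libraries gave 1 DEG and DESeq2 on all 24 gave 3, so neither the tool nor the choice of libraries raised the count of 3 when changed alone. With filterByExpr applied first, an alternative chosen after seeing the data, DESeq2 on the 6 gave 16 DEGs. These no longer held *Gm54109*, and they held 2 more, *Apod*, a lipid carrier of glia (higher, DESeq2 adjusted p = 0.0414), and *Fosb*, an AP-1 subunit (lower, 0.0491). *Pcsk1n*, *Slc29a4*, *Vegfa* and *Gm54109* were named after their values were seen. Over all alternatives tried, including no filter on low counts, between 0 and 150 genes were DEGs, *C4b* in 11 of 19, *Spag6* in 5 of 18 and ENSMUSG00000095041 in 16 of 19 alternatives.

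Beyond the DEGs, genes were described by whether the groups overlapped. All 3 old libraries lay above all 3 young in 1001 of 15693 genes (6.38%) and below in 892 (5.68%), and the median log2 fold change of all genes tested was -0.01, with 7542 above 0. A gene separated in all 6 libraries stays so when 1 is left out, so such counts can only rise, here and in the lists below. The shares of all genes were then 16.4% and 16.7% without young replicate 3 and 9.85% to 11.2% and 8.97% to 11.1% without another library. Predicted genes and those without a symbol, such as ENSMUSG00000095041, were set aside here. Among the 12 other non-overlapping genes with the smallest unadjusted p that were higher in old mice were *C4b* and *Spag6*, and the other 10 were not DEGs. *Lsp1*, an actin-binding protein of leukocytes, was at 7.70, 5.32 and 6.10 CPM in old and 3.40, 2.51 and 3.43 CPM in young libraries (log2 fold change 1.03, edgeR adjusted p = 0.165). The B cell tetraspanin *Cd37* was at 6.996, 5.64 and 6.69 against 3.98, 4.04 and 3.52 CPM (0.74, 0.393), and *Lacc1*, a purine enzyme of macrophages, at 8.08, 7.55 and 8.37 against 4.89, 4.31 and 5.15 CPM (0.74, 0.470). *Dennd1c*, a Rab exchange factor, and *Aspg*, an asparaginase found in reactive astrocytes, had log2 fold changes of 1.13 and 1.10 at means of 1.96 and 5.21 CPM in old mice, and *Dennd1c* shares 20.9% of its 50-base words with *Crb3* on the opposite strand.

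Further genes of this group had smaller fold changes or few counts. *Psd*, an Arf6 exchange factor of dendritic spines, was at 1013, 977 and 1034 CPM in old and 758, 769.8 and 809.6 CPM in young libraries, and *Dgkz*, a diacylglycerol kinase of the synapse, at 835, 983 and 850.0 against 752, 709.6 and 664 CPM. Their log2 fold changes were small (0.37 and 0.33, edgeR adjusted p = 0.393 and 0.470), and *Psd* overlaps *Nfkb2* on the opposite strand. The peroxisomal oxidase *Acox3* was at 32.7, 30.7 and 35.2 against 26.05, 24.6 and 27.03 CPM, and *Fam167b* had between 1 and 13 counts in any library.

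Of the 12 corresponding genes lower in old mice none was a DEG. *Dpysl3*, a collapsin response mediator of growing axons, was at 34.8, 32.1 and 36.4 CPM in old and 43.97, 46.4 and 45.3 CPM in young libraries, and *Lypd1*, a modulator of nicotinic receptors, at 32.3, 27.4 and 27.7 against 39.9, 42.3 and 37.9 CPM (log2 fold changes -0.39 and -0.46, edgeR adjusted p = 0.201 and 0.170). *Lypd1* shares 13% of its 50-base words with *Gpr39* on the opposite strand. *Lrrtm3*, a synaptic adhesion protein, was at 10.3, 13.7 and 12.5 against 21.4, 20.2 and 16.8 CPM. *Zdbf2* had the lowest ratio of the 12 (12.05, 12.6 and 15.4 against 23.1, 25.2 and 26.8 CPM, log2 fold change -0.91, edgeR adjusted p = 0.436). *Cbx8*, a Polycomb subunit (6.37, 4.13 and 5.12 against 9.29, 8.25 and 9.18 CPM), *Spata13* (34.4, 21.2 and 28.7 against 47.3, 45.6 and 41.5 CPM) and *Lipa*, the lysosomal acid lipase (21.4, 19.8 and 21.6 against 26.2, 25.03 and 32.3 CPM), were also lower in every old library. *Lman2l*, a lectin of the secretory pathway, and *Fer1l5*, a ferlin, overlap each other on opposite strands, share up to 13.6% of their 50-base words and had log2 fold changes of -0.38 and -0.47. From which strand the reads that match both came was not tested.

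Microglial genes were the list most often higher in old mice. Of 15 homeostatic microglia markers, 9 were higher in every old library (against 6.38% of all genes tested), 0 were lower in every old library (against 5.68%), and the median log2 fold change was 0.31. More cells of a type and more RNA per cell, or fewer and less, cannot be told apart in these bulk samples. *P2ry12*, the purinergic receptor that guides microglial processes, was at 67.9, 64.8 and 49.4 CPM in old and 46.8, 43.8 and 47.2 CPM in young libraries. *Trem2*, a lipid-sensing receptor, was at 24.9, 20.6 and 17.5 against 14.8, 13.5 and 16.1 CPM, and its signalling partner *Tyrobp* at 24.8, 26.5 and 22.5 against 18.8, 16.2 and 20.2 CPM. The most abundant marker, the growth factor receptor *Csf1r*, was at 162, 149.6 and 142 against 148, 146 and 135 CPM and overlapped. The log2 fold changes of *P2ry12*, *Trem2* and *Tyrobp* were 0.41, 0.51 and 0.42 (edgeR adjusted p = 0.562 for each). Leaving out single libraries kept the median between 0.23 and 0.35.

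Complement and phagocytic genes leaned the same way. Of 20 complement genes and Fc receptors, 6 were higher (30% against 6.38% of all genes) and 1 was lower (5% against 5.68%) in every old library. Their median log2 fold change was 0.29, and 11 were higher without old replicate 3 (55% against 11.2%). *C1qa*, which starts the classical pathway, was at 83.5, 81.4 and 68.5 CPM in old and 65.1, 64.2 and 59.5 CPM in young libraries, and the complement regulator *Cr1l* was the lower member (17.4, 18.4 and 20.7 against 23.9, 22.3 and 24.8 CPM). Of 21 genes of activated microglia, 6 were higher and 0 lower in every old library (28.6% and 0%, median 0.20). *Lyz2* was at 23.4, 20.3 and 26.4 against 10.7, 14.2 and 15.6 CPM, *Cd68*, a lysosomal protein of phagocytes, at 10.03, 10.6 and 9.85 against 6.22, 7.36 and 7.29 CPM, and *Gpnmb*, a glycoprotein of lipid-laden phagocytes, at 14.2, 11.7 and 11.03 against 9.13, 10.05 and 6.78 CPM. The lipid carrier *Apoe*, the most abundant of the list, overlapped at 2104, 1872 and 2139 against 1699, 1521 and 1978 CPM. The B cell gene *Ighm* was at 39.7, 33.7 and 35.3 CPM in old and 25.6, 23.1 and 18.02 CPM in young libraries. It is 1 of only 5 tested members among 19 B and plasma cell genes, which are given below.

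The antigen presentation and lysosome lists stood out less. Of 22 antigen presentation genes, 2 were higher in every old library (9.09% against 6.38% of all genes) and 20 had a log2 fold change above 0. Their median was 0.21, and it was 0.06 without old replicate 3 and 0.08 without young replicate 2. Without young replicate 3, 6 were higher, against 16.4% of all genes. Of 40 lysosome genes, 5 were higher and 3 lower (12.5% and 7.5%, against 6.38% and 5.68% of all genes), with a median of -0.01. Without young replicate 3 these counts were 13 and 6, against 16.4% and 16.7% of all genes. The lysosome median was between -0.03 (without young replicate 1) and 0.06 (without young replicate 3) with single libraries left out. Without old replicate 1, young replicate 1, young replicate 2 or old replicate 2 the higher and lower counts were 5 and 7, 5 and 8, 5 and 6, and 8 and 3. Of all genes, 9.85% to 10.6% were higher and 8.97% to 9.99% lower without these libraries in turn. The microglial protease *Ctss* was at 150.3, 151 and 135 CPM in old and 110.1, 113 and 106 CPM in young libraries, whereas *Psap*, the sphingolipid activator precursor and the most abundant member, overlapped at 1533, 1399 and 1406 against 1561, 1486 and 1563 CPM.

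Reactive astrocyte genes were also higher more often than genes in general. Of 24 reactive genes, 6 were higher in every old library (25% against 6.38% of all genes) and 1 was lower (4.17% against 5.68%). Their median log2 fold change was 0.24. The intermediate filament *Gfap* was at 972, 878 and 839 CPM in old and 668, 609 and 703 CPM in young libraries, with a log2 fold change of 0.44 (edgeR adjusted p = 0.497), and the proteoglycan *Srgn* at 8.55, 8.58 and 9.85 against 6.14, 7.09 and 6.26 CPM. Of 22 astrocyte markers, 2 were higher and 1 lower (9.09% and 4.55%, median 0.02), and 5 were higher without old replicate 1 (22.7% against 10.6% of all genes) and 7 without young replicate 3 (31.8% against 16.4%). Without old replicate 3, 3 were higher and 3 lower (13.6% each, against 11.2% and 11.1% of all genes). Without young replicate 1, 2 were lower (9.09% against 8.97%). Their median was between -0.01 (without young replicate 2) and 0.05 (without young replicate 3) with single libraries left out. The calcium-binding *S100b* was higher (213, 198 and 197 against 144, 146 and 190.2 CPM). The water channel *Aqp4* was lower (231, 222 and 201 against 327, 236 and 277 CPM), and the glutamate transporter *Slc1a2* overlapped at 5354, 5734 and 5841 against 5515, 5086 and 5850.1 CPM.

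Myelin genes leaned higher, but this rested on single libraries. Of 33 myelin and oligodendrocyte genes, 29 had a log2 fold change above 0, with a median of 0.21. In every old library 3 were higher (9.09% against 6.38% of all genes). The median was 0.07 without old replicate 1, 0.09 without young replicate 1 and 0.36 without young replicate 3. The count of 3 was 15 without young replicate 3, against 16.4% of all genes. It was 7 without old replicate 3 (21.2% against 11.2%), 6 without old replicate 2 (18.2% against 10.6%) and 5 without young replicate 1 (15.2% against 9.85%). *Mbp*, a structural protein of compact myelin, was at 5936, 4537 and 4483 CPM in old and 3194, 3519.6 and 4958 CPM in young libraries, and old replicate 1 and young replicate 3 were the highest of their groups. *Hapln2*, a link protein of the node of Ranvier, was at 26.8, 25.3 and 21.8 against 14.1, 15.3 and 18.8 CPM. Of 20 oligodendrocyte precursor genes, 1 was higher and 2 were lower (5% and 10%, against 6.38% and 5.68% of all genes). The lower ones were *Gpr17* (31.1, 27.2 and 28.6 against 52.5, 37.1 and 48.999 CPM, log2 fold change -0.67, edgeR adjusted p = 0.470) and the growth factor receptor *Pdgfra* (61.8, 59.8 and 66.3 against 72.01, 70.2 and 73.2 CPM). Without young replicate 3 the higher and lower counts were 5 and 5, against 16.4% and 16.7% of all genes. Without old replicate 3 they were 4 and 4 (20% each, against 11.2% and 11.1%). Without old replicate 1 they were 2 and 4 (10% and 20%, against 10.6% and 9.87%).

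Genes of adult neurogenesis leaned lower. Of 37 tested members 29 had a log2 fold change below 0, and the median was -0.18, between -0.20 and -0.12 with each library left out. In every old library 0 were higher (0% against 6.38% of all genes) and 4 lower (10.8% against 5.68%). The count of 4 was 8 without old replicate 2, old replicate 3, young replicate 1 or young replicate 2 (21.6%, against 8.97% to 11.1% of all genes). It was 11 without young replicate 3 (29.7% against 16.7%). Besides *Dpysl3*, the lower members included the mitotic kinetochore protein *Cenpf*, at 0.700, 0.715 and 0.591 CPM in old and 0.996, 1.79 and 1.37 CPM in young libraries, and the adhesion molecule *Ncam1*, at 179.7, 176 and 161 against 196, 195 and 180.1 CPM. The neuronal tubulin *Tubb3* overlapped at 112, 148 and 132 against 168, 162 and 146 CPM. Of 13 dentate granule cell markers 12 had a log2 fold change below 0 (median -0.22), but none was separated, and 9 were highest in young replicate 1. Without old replicate 1 their median was -0.35 and 2 were lower (15.4% against 9.87% of all genes), and without old replicate 2 it was -0.14. Without young replicate 3 it was -0.33 with 6 lower, against 16.7% of all genes. Of 10 markers of the pyramidal lineage, 1 was higher and 1 lower (10% each, median 0.14, and 0.06 without old replicate 2). Without old replicate 3, 4 were higher (40% against 11.2% of all genes). Without young replicate 2, 3 were higher, against 10.5%.

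Activity-regulated genes were lower in old mice more often than genes in general. Of 36 immediate early genes, 10 were lower and 1 was higher in every old library (27.8% against 5.68%, and 2.78% against 6.38%), with a median log2 fold change of -0.22, which was -0.14 without young replicate 2. Without young replicate 3, 18 were lower, against 16.7% of all genes. *Fosb*, a subunit of the AP-1 transcription factor, was at 7.15, 10.96 and 8.47 CPM in old and 17.5, 14.9 and 13.99 CPM in young libraries (log2 fold change -0.80, edgeR adjusted p = 0.435). Its relative *Fosl2* was at 38.8, 44.97 and 46.96 against 56.1, 61.5 and 57.4 CPM, the kinase *Sik1* at 11.2, 11.998 and 9.75 against 14.6, 16.1 and 18.1 CPM, and the nuclear receptor *Nr4a2* at 42.2, 49.98 and 50.1 against 62.97, 71.2 and 53.1 CPM. *Arc*, the most abundant of these genes and a regulator of synaptic receptors, overlapped at 253, 294 and 309 against 274, 377 and 286 CPM.

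Glucocorticoid-induced genes were also lower more often. Of 34 members, 9 were lower and 1 was higher in every old library (26.5% and 2.94%, against 5.68% and 6.38% of all genes). The median log2 fold change was -0.21. Young replicate 1 was the highest library in 18 of the 34. Without it the median was -0.05 with 9 lower (26.5% against 8.97%), while 14 were lower without old replicate 3 (41.2% against 11.1%). *Sgk1*, a kinase that regulates ion channels, was at 78.2, 81.8 and 72.9 CPM in old and 142, 131 and 118 CPM in young libraries (log2 fold change -0.74, edgeR adjusted p = 0.562). *Tsc22d3*, the leucine zipper protein GILZ, was at 45.01, 55.1 and 49.3 against 120.3, 70.5 and 73.3 CPM, with young replicate 1 well above the rest. *Txnip*, an inhibitor of thioredoxin, was even within each group at 34.4, 28.7 and 30.4 against 41.9, 41.4 and 42.1 CPM, and *Tsc22d1*, the most abundant member, overlapped.

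To show promoter sequence of genes described above, 9 short motifs were searched on both strands of RefSeq promoter windows from 250 bases before to 50 after the start, in 8 lists. Of these 72 pairs of motif and list, 35 had no window with a match, and the promoters printed were chosen after the matches were seen. The palindromic glucocorticoid receptor element GNACANNNTGTNC was in 156 of 32851 windows of all genes (0.475%) and in 4 of 45 windows of the glucocorticoid list (8.89%), those of *Map3k6*, *Mt1*, *Sgk1* and *Txnip*. Of these 4 genes *Sgk1* and *Txnip* were lower in every old library and the other 2 overlapped, against 6 lower of the 26 genes without a match. The element was also in 2 of 32 windows of the reactive astrocyte list (6.25%) and in 1 of 45 windows of immediate early genes (2.22%), that of *Jund*, an AP-1 subunit named after its values were seen, which was higher in every old library at 32.8, 30.1 and 32.6 against 24.8, 26.2 and 24.8 CPM. The partial cAMP response element TGACG, which lies within the complete element that was also searched, was in 20.8% of all windows and in 27 of 45 windows of immediate early genes, but also in 43.9% of ribosomal protein windows. Of the 28 immediate early genes with a window, 7 of the 20 with a match and 2 of the 8 without were lower in every old library. The 250 bases before the start are given 5′ to 3′ with the match in capitals, at GRCm39 chr10:21869539-21869788 (plus strand), chr3:96465023-96465272 (plus strand) and chr7:19043971-19044220 (minus strand). A match describes the letters and not binding.
*Sgk1*: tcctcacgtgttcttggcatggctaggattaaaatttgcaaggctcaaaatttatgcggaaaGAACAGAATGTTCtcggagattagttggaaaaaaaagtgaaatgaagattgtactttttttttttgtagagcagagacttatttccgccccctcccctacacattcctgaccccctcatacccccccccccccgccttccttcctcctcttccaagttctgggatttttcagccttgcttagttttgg
*Txnip*: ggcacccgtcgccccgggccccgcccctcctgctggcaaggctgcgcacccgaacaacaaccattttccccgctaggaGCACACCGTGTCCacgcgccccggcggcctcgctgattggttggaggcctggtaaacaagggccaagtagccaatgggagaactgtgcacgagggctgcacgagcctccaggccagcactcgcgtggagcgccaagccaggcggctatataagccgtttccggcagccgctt
*Fosb*: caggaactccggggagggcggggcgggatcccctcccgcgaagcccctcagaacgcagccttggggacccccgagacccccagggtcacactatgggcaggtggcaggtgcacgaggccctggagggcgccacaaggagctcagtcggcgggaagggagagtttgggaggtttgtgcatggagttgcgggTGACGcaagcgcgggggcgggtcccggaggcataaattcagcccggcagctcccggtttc

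The heat shock list, which also holds other chaperones, was the list most often lower in old mice, while cold-inducible members were higher. Of its 36 genes, 14 were lower and 3 were higher in every old library (38.9% against 5.68%, and 8.33% against 6.38%). The median log2 fold change was -0.28, between -0.27 and -0.23 with each library left out. Among its members of the endoplasmic reticulum, *Calr*, *Canx*, *Hsp90b1* and *Pdia6* were lower in every old library. *Creld2*, *Dnajc3*, *Hspa5*, *Pdia4* and *Sdf2l1* overlapped. The count of 14 was 24 without young replicate 2 (66.7% against 9.99% of all genes). Young replicate 1 was the highest library in 22 of the 36, and without it 14 were lower, a count that could not fall, while the share of all genes rose to 8.97%. *Hsph1*, a co-chaperone of the HSP110 family, was at 241, 287 and 262 CPM in old and 395, 359 and 295 CPM in young libraries, and its relatives *Hspa4* and *Hspa4l* at 215, 236 and 214 against 291, 271 and 244 CPM and at 142, 153 and 144 against 202, 195 and 174 CPM. Their log2 fold changes were -0.41, -0.28 and -0.38 (edgeR adjusted p = 0.488, 0.470 and 0.560). The chaperone *Hsp90ab1*, the most abundant member, overlapped by a small margin at 1392, 1367 and 1348 against 1639, 1571 and 1391 CPM. In the opposite direction, *Cirbp* was at 62.8, 51.01 and 61.6 CPM in old and 34.8, 41.4 and 32.4 CPM in young libraries and *Rbm3* at 15.6, 14.9 and 19.6 against 10.2, 8.16 and 9.95 CPM, with log2 fold changes of 0.69 and 0.82 (edgeR adjusted p = 0.497 and 0.435). The heat shock element GAANNTTCNNGAA (TTCNNGAANNTTC on the other strand) was in 0.603% of all promoter windows and in 5 of 38 windows of this list (13.2%), those of *Chordc1*, *Hspd1*, *Hspe1* and *Hsph1*. Only *Hsph1* of these 4 was lower in every old library, against 10 of the 25 genes without a match. Body temperature, time of day and time to dissection are not given in the sources used here, and their part in these values was not tested.

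**Figure D3:**
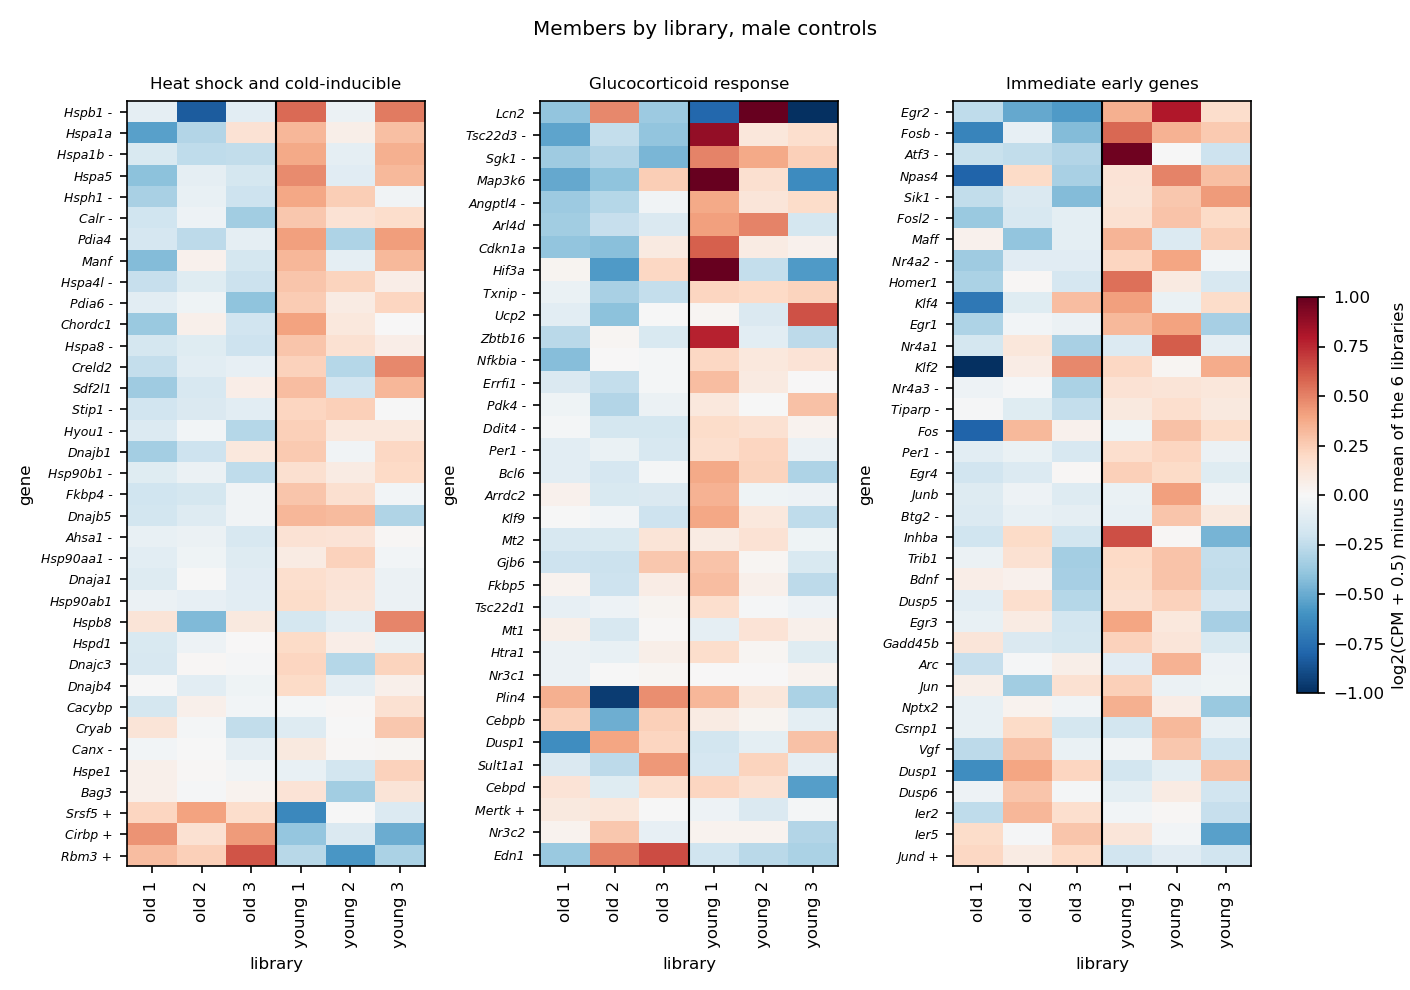
Level of each tested member of 3 lists (rows) in the 6 male control libraries (columns), as log2(CPM + 0.5) minus the mean of the 6, with colours limited to the range -1 to 1. Rows are ordered by log2 fold change, a minus or plus marks genes lower or higher in every old library, and the highest library was young replicate 1 in 22 and 18 members of the heat shock and glucocorticoid lists and young replicate 2 in 15 immediate early genes.

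Structural matrix genes showed no common direction. Of 66 members, 0 were higher and 3 lower in every old library (0% and 4.55%, against 6.38% and 5.68% of all genes). The median log2 fold change was 0.00, and old replicate 3 was the highest library in 32. Without old replicate 3 the median was -0.21 and 14 were lower (21.2% against 11.1%). The median was 0.14 without old replicate 1, 0.08 without old replicate 2, 0.12 without young replicate 3 and -0.04 without young replicate 2. *Tnc*, a matrix glycoprotein of development and injury, was at 3.34, 4.05 and 4.63 CPM in old and 9.29, 4.84 and 7.72 CPM in young libraries. *Sparcl1*, a matrix protein secreted by astrocytes and the most abundant member, overlapped at 2118, 2134 and 2192 against 2226, 2044 and 2082 CPM.

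Of 22 tested genes of the estrogen and androgen system, 0 were higher and 2 lower in every old library. These are 0% and 9.09%, against 6.38% and 5.68% of all genes. The median log2 fold change was -0.02 (0.03 without old replicate 2). Without young replicate 1, 4 were lower (18.2% against 8.97% of all genes). Without young replicate 3, 4 were lower and 2 higher, against 16.7% and 16.4%. Without young replicate 2, 2 were higher (9.09% against 10.5%), and without old replicate 1, 1 was higher (4.55% against 10.6%). The estrogen receptor *Esr1* was at 2.57, 3.34 and 1.87 CPM in old and 1.16, 2.06 and 2.66 CPM in young libraries, and the membrane receptor *Gper1* at 2.33, 3.26 and 2.86 against 2.32, 2.78 and 2.15 CPM, and each overlapped between the ages. The coactivator *Ncoa2* was lower at 103, 108 and 108 against 128, 121 and 111 CPM.

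Among 53 glutamate receptor and postsynaptic genes, 8 were higher in every old library (15.1% against 6.38% of all genes). In every old library 4 were lower (7.55% against 5.68%), and the median log2 fold change was -0.01. The lower count was 8 without old replicate 2 (15.1% against 9.76% of all genes). It was 18 without young replicate 3, against 16.7% of all genes. The median was -0.05 and -0.04 without these libraries in turn, 0.01 without young replicate 2 and 0.00 without old replicate 1. The receptor subunit *Grin2c* was at 64.8, 64.3 and 68.03 CPM in old and 50.9, 53.3 and 58.6 CPM in young libraries, and the scaffold *Dlgap3* at 460.4, 462 and 514 against 407, 391.8 and 437 CPM. The subunit *Grin3a*, which is typical of immature synapses, was lower at 27.3, 25.9 and 27.8 against 35.3, 33.02 and 36.04 CPM.

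Ribosomal protein genes leaned higher by small amounts. Of 70 tested, 60 had a log2 fold change above 0, with a median of 0.14. In every old library 7 were higher (10% against 6.38% of all genes) and 1 was lower (1.43% against 5.68%). The highest library was old replicate 3 in 30, young replicate 3 in 16 and old replicate 1 in 14. Without young replicate 3, 36 were higher, against 16.4% of all genes, and the median was 0.22. Without young replicate 1 the median was 0.09. Without old replicate 2 the higher count was 21 (30% against 10.6%). *Rps19*, of the small subunit, was at 57.5, 53.4 and 62.4 CPM in old and 42.7, 44.7 and 51.9 CPM in young libraries, and *Rpl4*, of the large subunit, at 491, 469 and 508 against 434, 423 and 446 CPM. Of 75 nuclear genes of oxidative phosphorylation, 7 were higher (9.33% against 6.38% of all genes tested) and 3 lower (against 5.68%), with a median of 0.05. Without young replicate 3 these were 39 and 7 of 75, against 16.4% and 16.7% of all genes, with a median of 0.12, without young replicate 2 the higher count was 12, and without young replicate 1 the median was 0.02. The cytochrome oxidase subunits *Cox8a* and *Cox6a1* were at 285, 259.9 and 277 against 177, 185 and 238 CPM and at 309, 285 and 301 against 221, 219 and 257 CPM.

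The share of counts on mitochondrial genes was 8.69%, 8.87% and 9.12% in old and 7.31%, 7.43% and 9.43% in young libraries (exact two-sided permutation test, p = 0.4). Of 13 nuclear-retained noncoding RNAs, 2 were higher in every old library (15.4% against 6.38% of all genes). These were *Neat1* and *Xist*, the latter at the 0 to 11 counts given above. The median log2 fold change of the 13 was 0.39, and it was 0.05 without old replicate 2 and 0.25 without young replicate 1. Without old replicate 1 or young replicate 3, 5 were higher, against 10.6% and 16.4% of all genes. *Neat1*, the scaffold of paraspeckles, was at 144, 133 and 118 CPM in old and 53.7, 57.95 and 112 CPM in young libraries, and *Meg3*, an imprinted RNA, at 258, 799 and 560.4 against 331, 337 and 518 CPM, where old replicate 2 was the highest. When genes were ordered by exon length into 4 equal groups, 8.26% of the shortest were higher and 4.06% lower in every old library, against 4.12% and 7.72% of the longest. The part of RNA quality and transcript length in the lists above was not tested.

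*C4b* was the only tested member of all 51 lists that passed edgeR's thresholds. The 26 lists not described above had 464 tested places, a gene in several lists counted in each. Of these places, 6.68% were higher and 4.96% lower in every old library, against 6.38% and 5.68% of all genes. Their medians ranged from -0.30 for ependymal markers, of which 8 of 10 were highest in young replicate 3 and whose median was 0.33 without it (-0.57 to -0.11 without another library), to 0.71 for the 5 tested B and plasma cell genes.

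**Figure D4:**
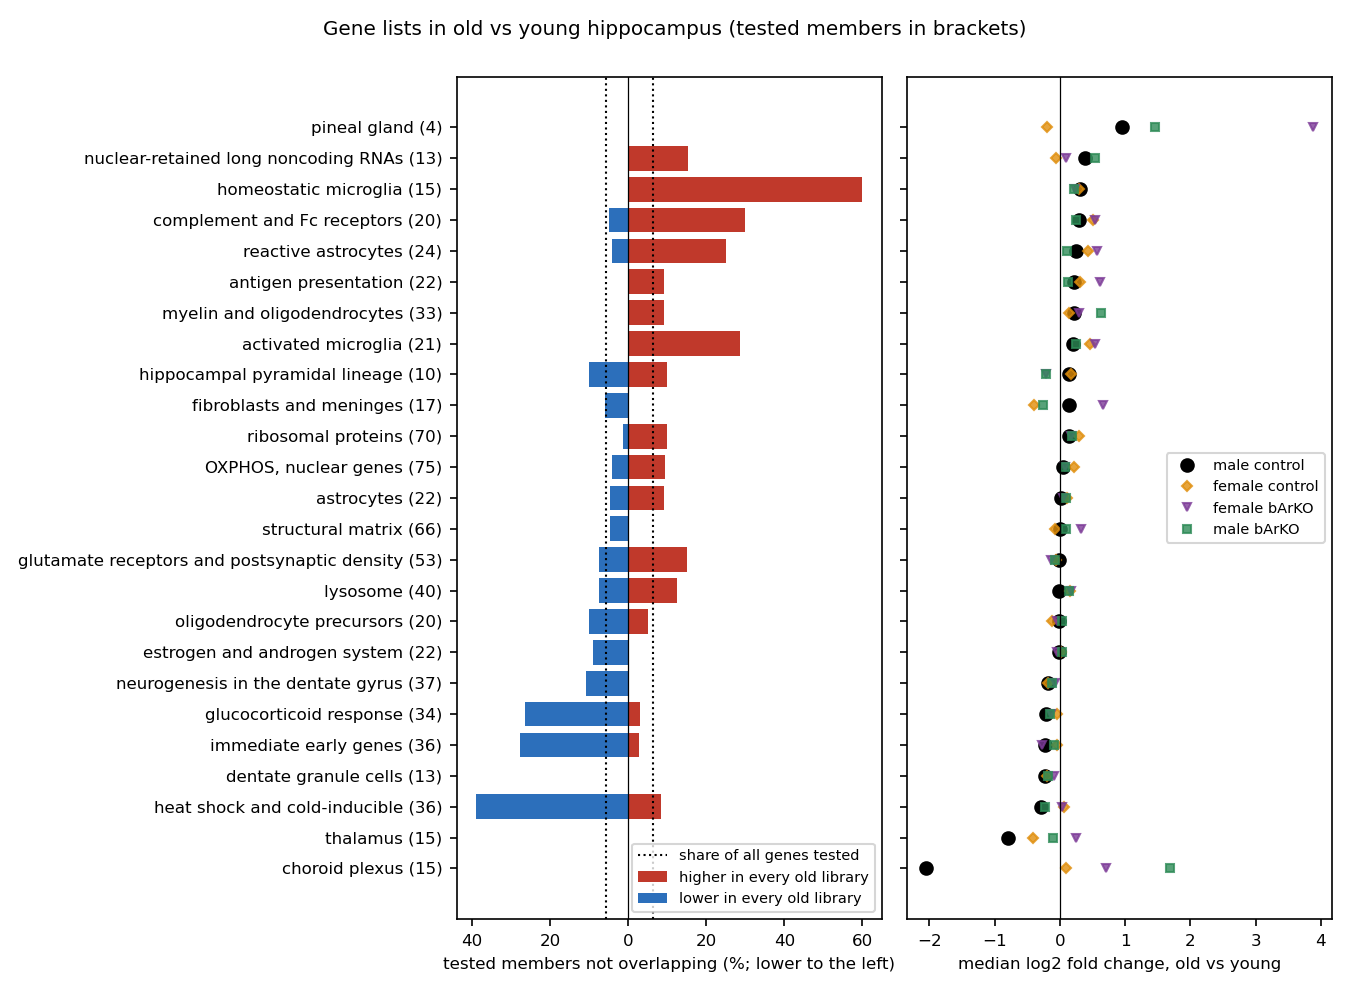
Left, share of tested members (number in brackets) higher (red) or lower (blue, to the left) in every old male control library, with dotted lines at the shares of all genes tested, 6.38% and 5.68%. Right, median log2 fold change of the same lists in the 4 old vs young comparisons, where the choroid plexus and pineal gland medians rest on single libraries in male controls.

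Finally, the ageing differences of male controls were set beside those of the other 3 groups, which share no library with them. The log2 fold changes of the 15693 genes correlated across genes at r = 0.209 with female controls, 0.128 with female *bArKO* and 0.153 with male *bArKO* mice, where genes are not independent replicates. The 1001 genes higher in every old male control had median log2 fold changes of 0.15, 0.07 and 0.16 in these 3 groups, and the 892 lower genes -0.09, -0.03 and -0.11. The medians of all genes tested were 0.008, 0.005 and 0.014 there. ENSMUSG00000095041 had log2 fold changes of 1.39, 1.17 and 1.78, and *Spag6* of 0.59, 0.65 and 0.80, in the same order. For *Lsp1* they were 0.99, 1.07 and 0.67, against 1.03 in male controls. *Cirbp* had 0.08 and -0.02 in females and 0.71 in male *bArKO* mice against 0.69 in male controls. The median of the heat shock list was likewise 0.06 and 0.04 in females and -0.23 in male *bArKO* mice, against -0.28 in male controls. Homeostatic microglia had medians of 0.30, 0.24 and 0.21, and activated microglia of 0.46, 0.54 and 0.25.

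**Figure D5:**
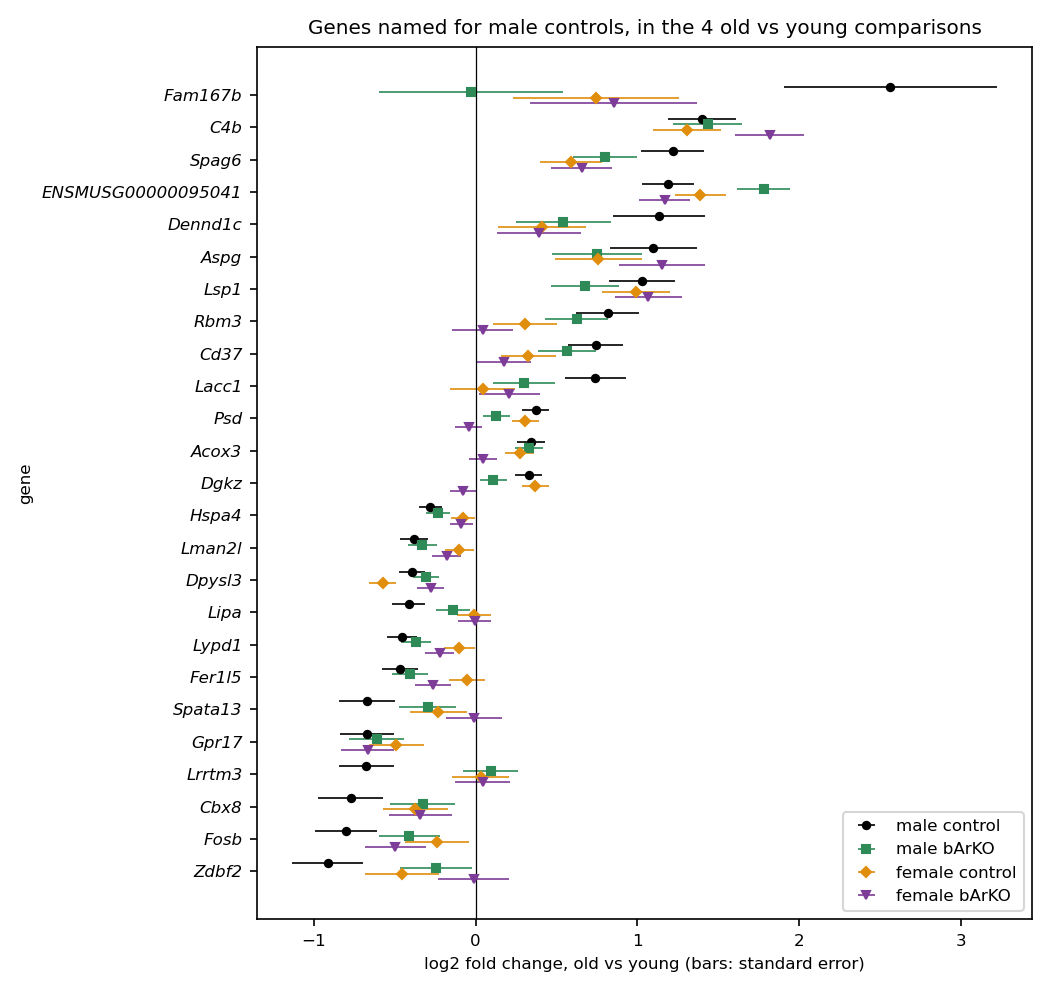
Log2 fold changes (old vs young, with standard errors from edgeR's fit of 24 libraries) of the DEGs and the 12 genes named in each direction for male controls, in male control, male *bArKO*, female control and female *bArKO* mice (3 old and 3 young libraries each). The genes were chosen for their separation in male controls, so only the other 3 groups are free of that choice, and *C4b* and ENSMUSG00000095041 are far above 0 in all 4.

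Whether ageing differed between groups was tested with interaction terms. For sex by age in controls, 0 of 15693 genes (0%) had an edgeR adjusted p under 0.05, with 679 at an unadjusted p under 0.05 and 0 by DESeq2. The genes with the smallest p were *Sytl2*, a synaptotagmin-like protein of vesicle transport, and the noncoding *C330013E15Rik* and *2810403D21Rik*, and the smallest edgeR adjusted p was 0.931. *Sytl2* was at 38.01, 34.2 and 39.2 CPM in old and 27.5, 28.3 and 34.2 CPM in young male controls, and its log2 fold change was 0.31 in male and -0.36 in female controls. For age by genotype in males, 0 of 15693 genes (0%) passed, with 531 at an unadjusted p under 0.05 and 0 by DESeq2, and the genes with the smallest p were *Rnf207*, *Rab10os* and *Slc9a5* (smallest edgeR adjusted p = 1.00). *Cirbp* had an edgeR adjusted p of 0.931 for sex by age, and the difference between the sexes in the heat shock list was not tested.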

How the data were processed

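Hippocampal RNA of 24 mice (8 groups of 3 by sex, genotype and age) was sequenced, and 6 libraries of male controls are compared here. RNA was isolated with RNeasy, and TruSeq Stranded mRNA libraries were sequenced on an Illumina HiSeq instrument. According to the authors, reads were checked with FastQC 0.12.0, trimmed with Trim Galore 0.6.10 and cutadapt 4.2, aligned to GRCm39 with STAR 2.7.9a and counted per gene with HTSeq 2.0.2, and the raw counts were deposited without normalization. The authors mention default settings in general for their tools without naming the strand option of HTSeq, and the annotation release of the counting is not given in the sources used here.

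The table held 57186 genes, of which 15693 passed edgeR's filterByExpr over the 8 groups. Libraries were scaled with TMM and fitted together with edgeR 4.0.16 (R 4.3.3), and CPM were computed here. Thresholds were a Benjamini-Hochberg adjusted p of 0.05 and an absolute log2 fold change of 0.5. DESeq2 1.42.0, RLE factors, other filters, thinning, fits of fewer libraries, a replicate block and leaving out each library were tried as alternatives, and 3 more were added after seeing the data (DESeq2 on the 6 libraries after filterByExpr, edgeR on the 12 controls, and leaving out young replicates 1 and 3 together). Totals of all 24 libraries were 7615391 to 18872054 counts, and 10 counts correspond to about 1 CPM in these 6.

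Genes are named if they were DEGs, were among the 12 non-overlapping genes with the smallest p in each direction (predicted genes and those without a symbol left out), were list members (for each list described at most 4 with the smallest p, and the most abundant), belonged to a set chosen by hand (genes of the steroid system, *C4b*, *Ighm*, *Xist* and Y-linked genes), or were among the 3 with the smallest interaction p. *Chordc1*, *Pcsk1n*, *Slc29a4*, *Vegfa*, *Gm54109* and *Jund* were added after their values were seen. Endoplasmic reticulum members of the heat shock list and genes given for a motif match were named whether or not this rule named them. The same holds for paralogs, overlapping genes and further pineal markers. Some genes that this rule names are not reported. The 51 lists and their members were chosen with earlier results of these data known. Outdated symbols in the lists were replaced or dropped after the table was seen, and the 25 lists described were chosen after their values were seen. Promoter windows are credited to RefSeq (table build GRCm38.p6), and the promoters printed had a single exact match on their chromosome in GRCm39.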

Additional observations from a re-analysis of the deposited data

How the results depend on the processing

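The number of DEGs was also 3 with DESeq2 on all 24 libraries, RLE factors, a minimum of 10 counts in every library or no fold threshold. An equal number does not show that the genes were the same. DESeq2 on the 6 libraries gave 15, or 16 once filterByExpr was applied (an alternative chosen after seeing the data). There was 1 with edgeR on the 6, on the 12 male or on the 12 control libraries (the last chosen after seeing the data), and there were 2 with thinning and 150 with no filter beyond 1 count, which also gave 64 and 123 genes for sex by age and age by genotype. Leaving out single libraries gave 0 to 2 DEGs, and leaving out young replicates 1 and 3 together gave 0 (chosen after seeing the data, the lone young library being assumed to vary like the other groups). Differences from the group mean correlated at -0.06, 0.27 and 0.10 between equal replicate numbers. Between unequal numbers they correlated at -0.22 to 0.10. With 3 libraries a side these values cannot decide whether replicate numbers pair the mice. With a replicate block there were 2 DEGs in the fit of 24 and 0 in the fit of 6 libraries. Of 149 genes named by rule or added, 128 kept their sign in all alternatives and 21 did not. Among those in the text, log2 fold changes with single libraries left out ranged from -0.00900 to 0.0986 for *Slc1a2*, -0.215 to 0.0295 for *Arc*, -0.00229 to 0.0572 for *Sparcl1*, -3.89 to 1.13 for *Ttr*, -0.37 to 2.74 for *Tph1*, -0.0346 to 1.07 for *Mgp* and -0.44 to 0.13 for *Rnf207*. Without young replicates 1 and 3 *Ttr* was at 4.15 and *Rnf207* at 0.12. The causes were not tested. Genes with few counts, such as aromatase, could not be measured at this depth.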
